A study of Mus musculus with 16 samples.

Results

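The carboxylesterases of the Ces1 and Ces2 subfamilies that carry signal in mouse terminal ileum are described here gene by gene. The 9 genes were Ces1c, Ces1d, Ces1e, Ces1f, Ces1g, Ces2a, Ces2b, Ces2c and Ces2e, taken by symbol from a table of 24940 genes that lists 19 carboxylesterase genes. The family was chosen from earlier results of these same libraries, in which Ces1c was lower in male than in female WT ileum, so that contrast is given below as values with no test. The comparisons of LKO with WT and the interaction share those WT libraries, whereas the comparison of the sexes in LKO uses libraries on which the choice of Ces1c did not rest. Why the other 8 genes were picked is not stated in the sources used here.

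RNA-seq of poly(A) RNA was performed on the last stretch of ileum before the cecum from 16 C57BL/6 mice, 4 per group. Controls (WT) were Bcl6fl/fl mice, in which both copies of Bcl6 are flanked by loxP sites and no Cre is present. Bcl6LKO mice (LKO) carry the same floxed alleles and Cre recombinase under the albumin promoter, which is active in hepatocytes, so the ileum itself was not the site of deletion. Each genotype was sampled in both sexes, and the age of the mice is not given in the sources used here.

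Gene counts summed to 60.3 M in female LKO replicate 1 and 15.7 to 20.5 M in each of the other 15 libraries. Levels within a gene are given as CPM, the count scaled for library size with TMM factors (trimmed mean of M-values), and levels between genes as RPKM, the CPM per kb of exon. At these depths 3 counts, the limit that a count of 0 allows, stood for 0.0497 to 0.191 CPM, and this covers counting error only. Bcl6 transcripts were present in every ileum, at 14.0 to 17.9 CPM in male WT, 17.2 to 21.9 in male LKO, 9.24 to 15.1 in female WT and 15.2 to 26.1 in female LKO. Female LKO replicates 2 and 3 stood apart with summed B-cell follicle markers (7 genes) of 172 and 326 CPM, against 14.3 to 102 CPM in the other 14 libraries. Fits that rest on them were repeated without them.

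Carboxylesterases are serine hydrolases, most of them held in the lumen of the endoplasmic reticulum, that split ester, amide and thioester bonds. They activate or inactivate ester drugs and also act on acylglycerols and cholesteryl esters. In rodents the Ces1 and Ces2 genes have multiplied in tandem clusters. The liver is best known for Ces1 enzymes, and the small intestine, where enterocytes meet swallowed esters and absorbed fat first, for Ces2 enzymes.

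All 9 genes lie on chromosome 8 in 2 clusters (coordinates as in the deposited table, mm10). The 5 Ces1 genes, all on the minus strand, span positions 93099016 to 93337209, a stretch of 238.2 kb that holds no other listed gene. The 4 Ces2 genes, all on the plus strand, span 104734003 to 104934672, or 200.7 kb, with the pseudogene Ces2d-ps among them. The intervals are whole annotated genes, and reads were counted over their exons. Within the subfamilies the transcripts were close in sequence (GENCODE vM21, 1 transcript per gene). Pairs of Ces1 transcripts matched at 73.0% to 78.5% of aligned bases and pairs of Ces2 transcripts at 76.0% to 91.6%, the highest being Ces2b with Ces2c, whereas a Ces1 and a Ces2 transcript matched at 61.8% to 64.8%. The authors kept reads that mapped to a single place, so stretches shared with another gene lose reads. Of all 100-base windows, the read length, 15.98% in Ces2c recurred exactly in another annotated gene (Ces2d-ps, Gm8798 or Gm6831), 10.75% in Ces2a (Gm7208), 1.39% in Ces1c (Ces1b) and 0.0907% in Ces2b (Gm6831). None did in Ces1d, Ces1e, Ces1f, Ces1g or Ces2e. The counts of Ces2a and Ces2c are therefore the least certain in absolute level.

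The 3 most abundant members, Ces2e, Ces2a and Ces2c, are shown first by sequence, because they hold most of the reads and share a run of letters ahead of their starts. RefSeq promoter windows (GRCm38.p6, 250 bases before and 50 after the start) were at hand for 6 of the 9 members, namely Ces1c, Ces1e, Ces1g, Ces2a, Ces2c and Ces2e. The 12 letters GAACTTTNNCCC, read on the strand of the gene, began 72 bases before the start of Ces2a, 74 before that of Ces2c and 82 before that of Ces2e. The first 7 of these letters are 1 of 2 runs of that length common to the 3 genes within 100 bases before the start (3 within 250 bases). The letters were chosen after the sequences had been read, and either strand of 28 of all 32851 promoter windows, or 0.0852%, held them, with no other carboxylesterase among these. The stretches are printed 5′ to 3′ on the plus strand with the shared run in capitals, for Ces2a at chr8:104733901-104733972, Ces2c at chr8:104846964-104847035 and Ces2e at chr8:104926148-104926219.
Ces2a: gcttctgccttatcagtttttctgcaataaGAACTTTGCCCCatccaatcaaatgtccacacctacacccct
Ces2c: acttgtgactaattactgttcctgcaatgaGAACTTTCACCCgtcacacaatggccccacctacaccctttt
Ces2e: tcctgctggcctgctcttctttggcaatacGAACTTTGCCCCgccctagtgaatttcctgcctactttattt

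Other short motifs were searched on both strands of the same windows. The TATA box TATAAA was in Ces1g (13.6% of all windows), where it lay on the opposite strand and overlapped a match to the CDX letters TTTATNG (10.9%), and AGGTCA, the core letters of many nuclear receptor sites, was in Ces2a (16.3%). The letters GTTAAT of HNF1 (7.10%), CAAAGTCCA of HNF4 (0.475%) and TGACNNNGC of the antioxidant response element (12.4%) were in no window of a member. A match describes letters only, and no match says only that these letters are not in this window. Each site was searched only in the spelling given, so a site written otherwise would be missed.

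Ces2 transcripts outweighed Ces1 transcripts in every library. Summed over members and per exon length, Ces2 reached 535.8 ± 62.4 RPKM and Ces1 64.0 ± 11.5 RPKM (SD, n = 16), and the ratio of the sums ran from 6.34 to 13.4. Ces2e, Ces2a and Ces2c together took 90.3% ± 1.80 of all carboxylesterase counts, Ces2e alone took 59.7% ± 2.85, and the 9 genes together 99.5% ± 0.101. Relative to the whole library the 9 genes held 0.140% ± 0.0134 of gene counts.

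**Figure D1:**
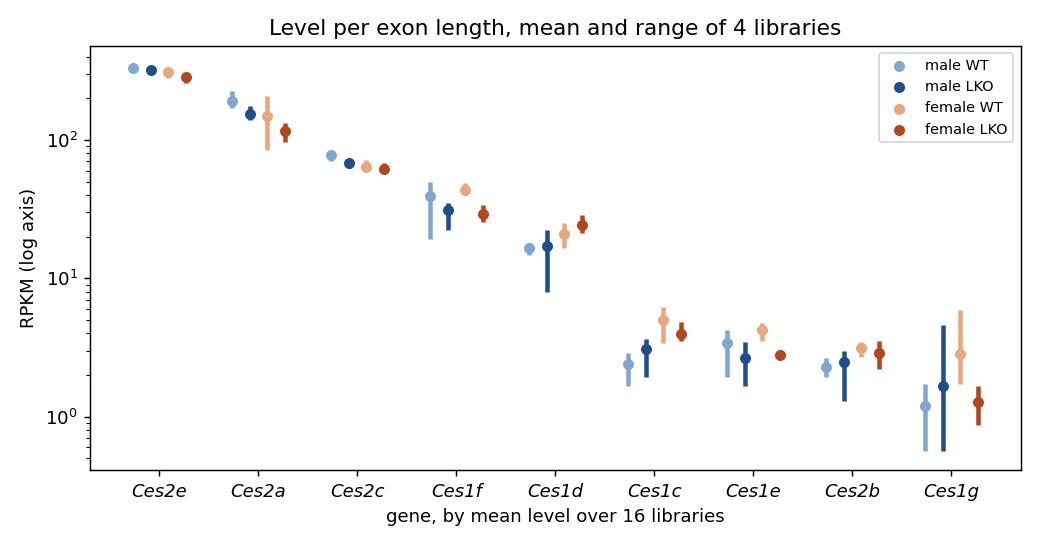
Level of each of the 9 carboxylesterases in RPKM (log axis), ordered by the mean over 16 libraries. Points are the means of 4 libraries per group and bars run from the lowest to the highest library. Ces2e lies between 260.3 and 347.3 RPKM in every library, while Ces1c, Ces1e, Ces2b and Ces1g all stay under 7 RPKM.

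The order of levels was shared by the groups at its top. Mean RPKM over 16 libraries was 311 ± 24.4 for Ces2e, which ranked 191st of 15598 genes passing the filter on low counts, 154 ± 39.5 for Ces2a and 68.0 ± 7.83 for Ces2c (SD). Ces1f followed at 35.7 ± 9.28 RPKM and Ces1d at 19.7 ± 4.81. Then came Ces1c at 3.61 ± 1.26 RPKM, Ces1e at 3.27 ± 0.905, Ces2b at 2.69 ± 0.582 and Ces1g at 1.74 ± 1.47. From Ces2e down to Ces1f no 2 neighbours overlapped in any group. The ranges of Ces1f and Ces1d overlapped in male LKO and in female LKO and not in either WT group, and Ces1d stood clear of the 4 low genes everywhere. Among Ces1c, Ces1e, Ces2b and Ces1g neighbours overlapped in all groups, except that Ces1g lay below Ces2b in male WT and below Ces1e in female LKO, and Ces2b below Ces1e in female WT.

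Of the other 10 carboxylesterase genes only Ces2g passed the filter, at 2.01 ± 0.392 RPKM, a level near those of Ces2b and Ces1g. Ces2h, Ces1b and Ces2f averaged 0.218, 0.195 and 0.152 RPKM. Ces3a, Ces2d-ps, Ces1a, Ces3b and Ces5a were lower still, and Ces4a had 0 counts in all 16 libraries. Ces2g was called in none of the tested comparisons, its edgeR log2 fold changes lying between -0.22 and 0.36.

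Ces2e, an esterase best known from intestine and liver, was also the steadiest member, with a coefficient of variation of 7.83% over the 16 libraries. It measured 933, 916, 866 and 832 CPM in male WT, 892, 834, 816 and 906 in male LKO, 796, 759, 895 and 874 in female WT and 804, 782, 773 and 699 in female LKO. Every male LKO library was above every female LKO library, and so was every male WT library, while the 2 genotypes overlapped within each sex.

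Ces2c, which hydrolyses acylglycerols as well as drug esters, measured 160, 158, 153 and 137 CPM in male WT and 143, 133, 123 and 139 in male LKO. In females it measured 115, 117, 141 and 124 CPM in WT and 133, 123, 116 and 113 in LKO. The genotypes overlapped within each sex, as did the sexes within LKO, and the coefficient of variation was 11.5%.

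Ces2a, a di- and triacylglycerol hydrolase that also cleaves drug esters, was more variable (25.7%). Male WT libraries held 385, 441, 332 and 345 CPM, and male LKO libraries 341, 291, 303 and 272. Female WT libraries ranged most widely, at 332, 270, 164 and 406 CPM, and female LKO libraries held 259, 207, 260 and 188. Male LKO again lay wholly above female LKO, and replicate 3 of female WT was the lowest of all 16 libraries.

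Ces2b is the scarce Ces2 member, with 42 to 412 counts per library. It measured 4.39, 4.98, 4.16 and 3.65 CPM in male WT, 5.60, 5.14, 2.45 and 5.43 in male LKO, 6.26, 5.07, 6.47 and 5.60 in female WT, and 6.66, 4.15, 5.62 and 5.37 in female LKO. Replicate 3 of male LKO was the lowest library.

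Ces1f, a triacylglycerol hydrolase of the Ces1 cluster, was the main Ces1 transcript and held 54.6% ± 9.12 of Ces1 member counts (SD, n = 16). It measured 94.4, 81.2, 85.9 and 36.8 CPM in male WT, 62.8, 66.1, 66.5 and 42.4 in male LKO, 78.2, 81.6, 93.3 and 75.7 in female WT, and 52.6, 64.4, 48.2 and 54.7 in female LKO. Every female LKO library was below every female WT library. In males the same held for 3 of the 4 WT libraries, since male WT replicate 4 was the lowest of all 16.

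Ces1d, known as triacylglycerol hydrolase and found also in adipose tissue, was the next Ces1 transcript. It measured 33.5, 28.5, 32.1 and 35.2 CPM in male WT, 37.9, 43.8, 15.5 and 36.7 in male LKO, 49.2, 41.5, 32.2 and 40.4 in female WT, and 55.5, 46.9, 41.4 and 45.2 in female LKO. Replicate 3 of male LKO was far below its group.

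Ces1e, the egasyn that anchors beta-glucuronidase in the endoplasmic reticulum, measured 8.63, 8.23, 7.08 and 3.95 CPM in male WT and 5.39, 7.17, 3.45 and 5.80 in male LKO. In females it measured 9.82, 8.20, 9.66 and 7.30 CPM in WT and 6.06, 5.68, 5.51 and 5.74 in LKO, with no overlap. The 4 female LKO libraries were the tightest set of any Ces1 gene, at 5.75 ± 0.231 CPM (SD).

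Ces1c, the secreted esterase of mouse plasma, measured 4.75, 5.23, 4.38 and 3.03 CPM in male WT and 5.85, 6.70, 3.51 and 6.37 in male LKO. In females it measured 6.20, 11.4, 10.3 and 8.56 CPM in WT and 6.38, 7.27, 8.77 and 6.59 in LKO. Ces1g, which hydrolyses lipids in liver, was mostly between 1.28 and 4.22 CPM but reached 10.5 CPM in male LKO replicate 2 and 13.5 CPM in female WT replicate 1. Those 2 libraries gave Ces1g a coefficient of variation of 84.5%, the highest among the members.

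**Figure D2:**
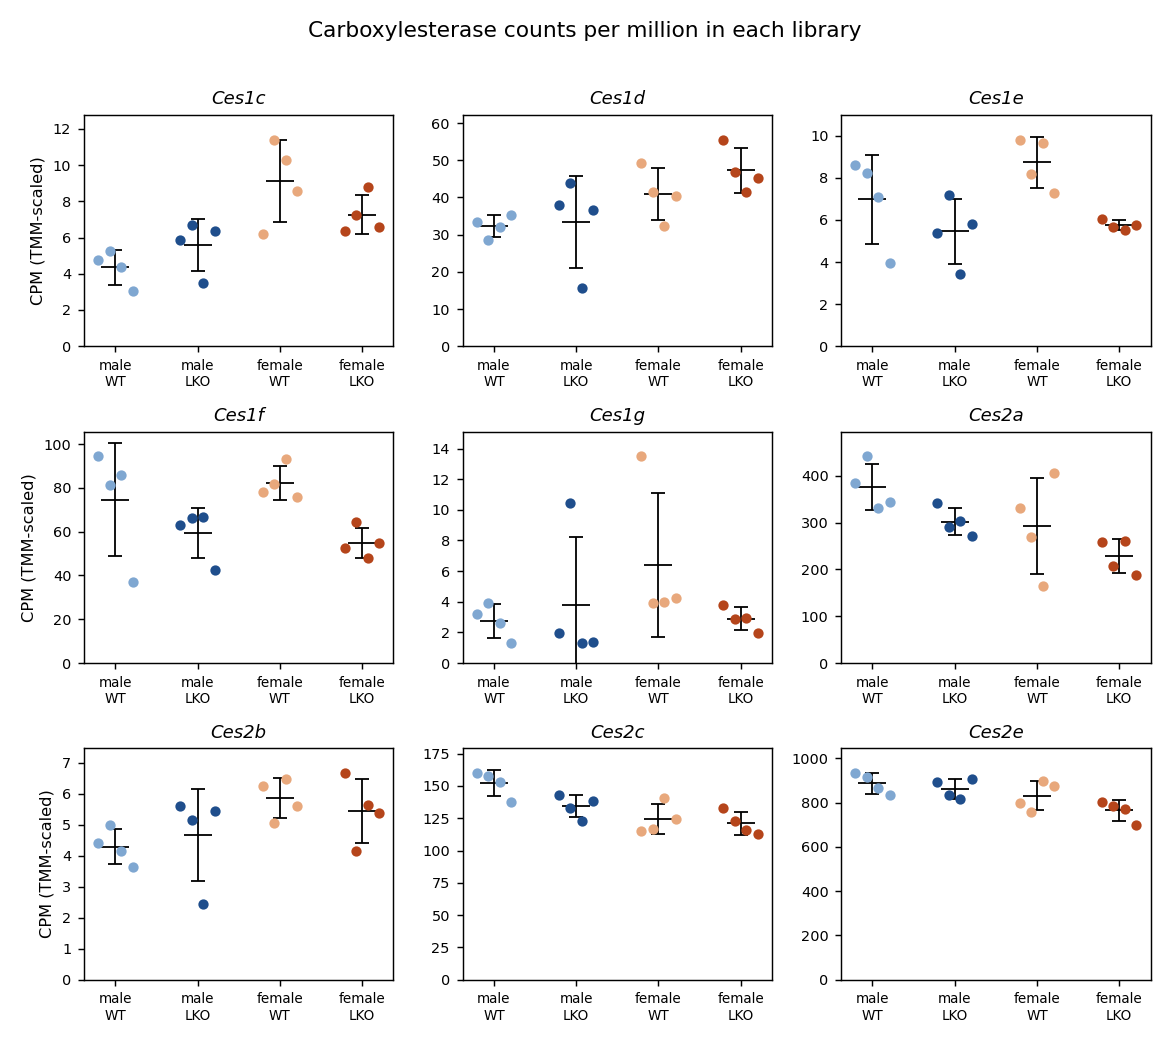
CPM of the 9 carboxylesterases in each library (points, 4 per group), with the group mean and SD in black (the lower SD bar of Ces1g in male LKO is cut at 0). In females Ces1e and Ces1f show LKO libraries wholly below WT, and in LKO mice Ces2a and Ces2e show males wholly above females.

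Some libraries were low in many members together. Male WT replicate 4 was the lowest of its group for 7 of the 9 genes (Ces1c, Ces1e, Ces1f, Ces1g, Ces2b, Ces2c and Ces2e), against 26.6% of all genes, and male LKO replicate 3 was so for 7 of 9 (Ces1c, Ces1d, Ces1e, Ces1g, Ces2b, Ces2c and Ces2e), against 30.3% of all genes. Female LKO replicate 1, the deepest library, was the highest of its group for 6 of 9 members, against 21.7% of all genes.

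The marker lists show what else the ileum pieces held. Enterocyte markers (12 genes) summed to 22550 to 30440 CPM and were high in every library. Hepatocyte markers (6 genes) summed to 9.97 to 52.0 CPM, with Cyp2e1 the largest part. Of the others, Alb was at no more than 3.32 CPM, Serpina1a at no more than 0.225 and Fgb at no more than 0.362. Ttr lay at 1.85 to 4.0 CPM and Apoh at 0.616 to 2.04 CPM. Adipocyte markers (7 genes) varied and summed to 103 to 345 CPM in male WT, 103 to 161 in male LKO, 109 to 200 in female WT and 164 to 373 in female LKO. The libraries are bulk tissue, so fewer cells of a type and less RNA per cell cannot be told apart.

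In WT ileum, the contrast from which Ces1c was named, mean Ces1c was 4.35 ± 0.945 CPM in males and 9.10 ± 2.26 in females (SD, n = 4), a log2 difference of -1.07 or 2.09-fold more in females. The contrast is given as description with no test. Ces1g was 2.73 ± 1.10 CPM in males and 6.41 ± 4.72 in females, a log2 difference of -1.23 that was -0.56 without female WT replicate 1. Ces2b differed by -0.45, Ces1d by -0.34, Ces1e by -0.33 and Ces1f by -0.14 on the log2 scale, all lower in males. The 3 abundant Ces2 genes were higher in males, by 0.36 for Ces2a, 0.29 for Ces2c and 0.093 for Ces2e. Male and female libraries did not overlap for Ces1c, Ces1g and Ces2b, and the same was true of 8.38% of all genes tested. As a ratio of sums, Ces2 over Ces1 was 10.01 ± 2.40 in male WT and 6.94 ± 1.04 in female WT.

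Whether the sexes also differed without hepatic Bcl6 was tested in LKO libraries. None of the 9 members passed the threshold (edgeR quasi-likelihood test, adjusted p under 0.05), while 0.0984% of all genes did. At an unadjusted p under 0.05 stood 2 of 9 members, Ces2a and Ces2e, beside 22.6% of all genes, and the same 2 did not overlap between the sexes, beside 12.9% of all genes, so both shares lie near the background. The median log2 difference of the members was 0.11, against -0.00053 over all genes.

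Ces2a was 302 ± 28.9 CPM in male LKO and 228 ± 36.7 in female LKO, a log2 difference of 0.40 ± 0.11 (SE, 95% interval 0.15 to 0.64, edgeR adjusted p = 0.0956). With DESeq2, which called 1043 genes where edgeR called 15, its adjusted p was 0.0169, and over all 19 alternatives it ranged up to 0.228. Ces2e, at 862 ± 43.6 and 764 ± 45.5 CPM, differed by 0.17 ± 0.064 (interval 0.032 to 0.31, edgeR adjusted p = 0.155), and Ces2c by 0.15 ± 0.070 (interval -0.0050 to 0.30). Ces1c differed by -0.36 ± 0.19, with an interval from -0.78 to 0.052, and by -0.20 without male LKO replicate 3. Ces1d differed by -0.50 ± 0.30 (interval -1.20 to 0.20), and by -0.27 without the same library. Ces1g differed by 0.34 with a wide interval from -1.39 to 2.06. Without male LKO replicate 2 the Ces1g value was -0.93. Ces1e, Ces1f and Ces2b had differences of -0.081, 0.11 and -0.24, all with intervals that include 0. Adipocyte markers, 7 of 7, were lower in male than in female LKO with a median log2 difference of -1.26, and smooth muscle markers, 6 of 6, with -0.45, and their part in these values was not tested. Leaving out the 2 follicle-rich libraries called no member either. The values were then 0.43 for Ces2a, -0.60 for Ces1d, -0.12 for Ces1e, 0.15 for Ces1f and 0.29 for Ces1g.

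In males, the comparison of LKO with WT called 0 of 9 members, beside 0.0527% of all genes. Unadjusted, 2 of 9 members stood under 0.05, beside 5.29% of all genes, and 0 of 9 were without overlap, beside 2.97%. The 2 were Ces2a, at 376 ± 49.3 CPM in WT and 302 ± 28.9 in LKO (log2 fold change -0.31 ± 0.093, interval -0.51 to -0.11, edgeR adjusted p = 0.532), and Ces2c, at 152 ± 10.1 and 134 ± 8.67 CPM (log2 fold change -0.17 ± 0.070, interval -0.32 to -0.023, edgeR adjusted p = 0.876). Ces2e differed by -0.035 with an interval of -0.18 to 0.11, which bounds the difference on both sides. Ces1f, at 74.6 ± 25.8 and 59.5 ± 11.5 CPM, differed by -0.32 (interval -1.10 to 0.45), and by -0.55 without male WT replicate 4, -0.19 without male WT replicate 1 and -0.19 without male LKO replicate 4. Ces1e differed by -0.35 (interval -0.90 to 0.21), and by -0.55, -0.22 and -0.19 without male WT replicate 4, male WT replicate 1 and male LKO replicate 3. Ces1c differed by 0.38 (interval -0.076 to 0.83), and by 0.23 without male WT replicate 4. Ces1g and Ces1d had values of 0.46 and 0.055 that changed sign when 1 male LKO replicate was left out, replicate 2 for Ces1g (-0.81) and replicate 1 or 2 for Ces1d (-0.006917 and -0.098). Ces2b differed by 0.13 (interval -0.34 to 0.60). The median over the 9 members was -0.035, against -0.0020 over all genes. Other cell markers moved in the same comparison. Paneth cell markers, 5 of 5, were higher in LKO with a median log2 fold change of 0.47 and 3 of them called, their sum running from 11340 to 13710 CPM in male WT and from 16990 to 20170 in male LKO, and adipocyte markers, 7 of 7, were lower with a median of -0.51. Over the 16 libraries the Paneth sum had r = -0.58 with Ces2a (Spearman -0.61, -0.11 within groups, -0.57 without the 2 most extreme sums) and -0.64 with Ces2c (Spearman -0.46, 0.20 within groups, -0.41 without those 2). The part of these markers in the values of Ces2a and Ces2c was not tested.

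In females 8 of 9 members had lower values in LKO, and none passed the threshold. Ces1f was 82.2 ± 7.79 CPM in WT and 55.0 ± 6.88 in LKO (log2 fold change -0.58 ± 0.094, interval -0.79 to -0.38), with an edgeR adjusted p = 0.0555 that just missed the threshold. Ces1e was 8.74 ± 1.21 and 5.75 ± 0.231 CPM (log2 fold change -0.60 ± 0.13, interval -0.88 to -0.32, edgeR adjusted p = 0.163). Ces1g was 6.41 ± 4.72 and 2.89 ± 0.748 CPM, with a log2 fold change of -1.11 (interval -2.18 to -0.042, edgeR adjusted p = 0.406) that was -0.46 without female WT replicate 1. These 3 genes, of 9, were without overlap, beside 6.31% of all genes, and the same 3 of 9 stood at an unadjusted p under 0.05, beside 11.7% of all genes. With edgeR 0 of 9 members were called, beside 0.0392% of all genes.

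The call of Ces1f depended on the settings. Its adjusted p ran from 2.68e-05 (DESeq2) to 0.184 over 19 alternatives, and it passed the threshold with DESeq2, with no filter on low counts (0.01875) and without female LKO replicate 2 (0.0457). Ces1e passed with DESeq2 (0.0119), which called 154 genes where edgeR called 6. Without the 2 follicle-rich libraries Ces1f was at -0.62 (edgeR adjusted p = 0.0512), Ces1e at -0.56 (0.361) and Ces1g at -1.06 (0.748). The log2 fold change of Ces1e stayed between -0.68 and -0.54, and that of Ces1f between -0.67 and -0.51, whichever of the 8 libraries was left out. Adipocyte markers, 7 of 7, were higher in female LKO than in female WT with a median log2 fold change of 0.83, and over the 16 libraries their summed level and Ces1f had a Pearson r of -0.59 (Spearman -0.59, -0.66 with each group's mean removed, -0.53 when the 2 libraries with the most extreme sums were left out). For Ces1e the same r was -0.32 (Spearman -0.27, -0.42 within groups, -0.045 when those 2 were left out). Villus tip markers were higher in female LKO for 5 of 6 genes with a median log2 fold change of 0.73. Their sum had r = -0.66 with Ces1e (Spearman -0.74, -0.51 within groups, -0.50 without the 2 most extreme sums) and -0.43 with Ces1f (Spearman -0.43, -0.27 within groups, -0.29 without those 2). The part of either marker list in these values was not tested.

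Ces1d was higher in female LKO by 0.22 (interval -0.061 to 0.50) and Ces1c lower by 0.34 (log2 fold change -0.34, interval -0.73 to 0.054, and -0.21 without female WT replicate 2). Among Ces2 genes, Ces2a had a value of -0.36 (interval -1.01 to 0.30), which moved to -0.55 when female WT replicate 3, its lowest library, was left out and to -0.16 when replicate 4, its highest, was. Ces2e had a value of -0.12 (interval -0.28 to 0.039), Ces2b of -0.084 and Ces2c of -0.035 (interval -0.20 to 0.13). Over the members the median was -0.34, against 0.0070 over all genes, and 8 of 9 values were below 0.

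Averaged over both sexes, LKO against WT called 0 of 9 members, beside 0.269% of all genes, and 3 of 9 stood at an unadjusted p under 0.05, beside 11.2% of all genes. They were Ces1e (log2 fold change -0.48 ± 0.15, interval -0.79 to -0.17, edgeR adjusted p = 0.186), Ces1f (-0.46 ± 0.16, interval -0.81 to -0.10, edgeR adjusted p = 0.296) and Ces2a (-0.34 ± 0.15, interval -0.65 to -0.023, edgeR adjusted p = 0.400). Without the 2 follicle-rich libraries Ces1e was at -0.44 (edgeR adjusted p = 0.35) and Ces1f at -0.44 (0.47). Male WT replicate 4 bore on the same pair. Without it Ces1e passed the threshold at -0.58 (edgeR adjusted p = 0.0269) and Ces1f at -0.57 (0.00570), and leaving out any other single library called neither. Male WT replicate 4 had the most adipocyte marker signal of male WT, 345 CPM against 103 to 159 in the other 3. Its villus tip sum was the highest of all 16 libraries, 1914 CPM against 1061 to 1269 in the other 3 of male WT. Its enterocyte sum was the lowest of male WT, 25150 CPM against 27690 to 30440. The part of these signals was not tested. Ces2c (interval -0.22 to 0.0058) and Ces2e (interval -0.18 to 0.016) were bounded to small differences, and Ces1c, Ces1d, Ces1g and Ces2b had intervals on both sides of 0. The members' median was -0.11, against 0.00065 over all genes.

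**Figure D3:**
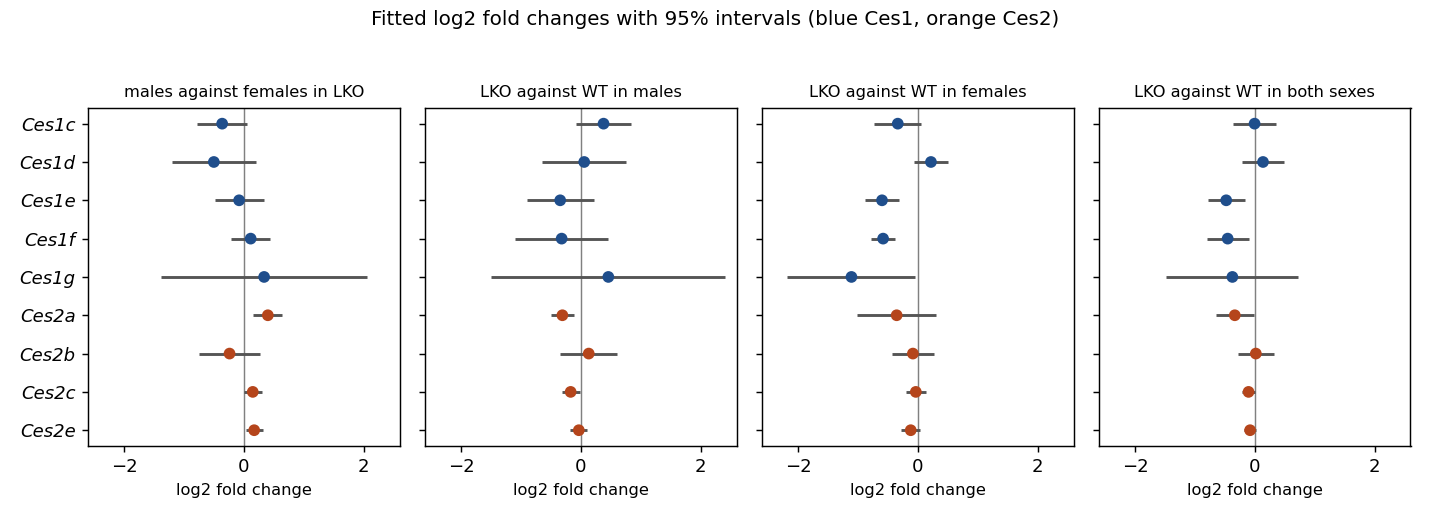
Fitted log2 fold changes (points, blue for Ces1 and orange for Ces2) with 95% intervals (bars) in the 4 comparisons of 2 conditions. No member passed the adjusted threshold in any panel. Ces1e and Ces1f lie below 0 in females with intervals clear of 0, and Ces1g has the widest intervals.

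The genotype by sex interaction asks whether LKO minus WT was another in males than in females. It contains the WT sex contrast from which Ces1c was named. Of the members 0 of 9 were called, as was 0% of all genes, and 1 of 9 stood at an unadjusted p under 0.05, beside 5.64% of all genes. That gene was Ces1c, with an estimate of 0.71 (interval 0.087 to 1.33), given as description since the contrast named it. For Ces1f the estimate was 0.26 (interval -0.47 to 0.98) and for Ces1e 0.25 (interval -0.37 to 0.87), so the female values of these genes are not shown to differ from the male ones. The members' median was 0.21, against -0.0046 over all genes.

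Members of a cluster did not move as a unit from animal to animal. With each group's mean removed, the Pearson r of log2 CPM over 16 libraries had a median of 0.43 over the 10 Ces1 pairs, 0.28 over the 6 Ces2 pairs and 0.24 over the 20 pairs between clusters. These are descriptions over libraries that share depth scaling. The closest pair was Ces2c with Ces2e, neighbours among the members, at r = 0.86 (0.85 before the removal, Spearman 0.89, and 0.80 without the 2 most extreme libraries of Ces2c), and both lay on the same side of their group mean in 14 of 16 libraries. Ces2a, which shares the printed run of letters with both, had r = -0.20 with Ces2c and 0.078 with Ces2e. Before the removal these were 0.43 (Spearman 0.49) and 0.51 (Spearman 0.56). Without the 2 most extreme libraries of Ces2a the latter pair of values was 0.54 and 0.70. In the Ces1 cluster, again with group means removed, Ces1e followed Ces1g (0.69), Ces1c (0.64) and Ces1f (0.58), whereas Ces1d and Ces1f had r = -0.22. Before the removal, Ces1e and Ces1c had r = 0.55 (Spearman 0.29). It was 0.082 without the 2 most extreme libraries of Ces1c, so the value before the removal rests on those libraries. Ces1e had r = 0.74 with Ces1g (Spearman 0.82) and 0.71 with Ces1f (Spearman 0.73). Without the 2 most extreme libraries of Ces1e these were 0.63 and 0.82. Across clusters the highest values were for Ces2b with Ces1d (0.71) and with Ces1e (0.70), 3 genes that were all low in male LKO replicate 3. Before the removal of group means Ces1d and Ces2b had r = 0.75 (Spearman 0.47). It was 0.22 when the 2 most extreme libraries of Ces1d were left out, so the value before the removal rests on those libraries. Ces1e and Ces2b had r = 0.64 (Spearman 0.36) before the removal. Without the 2 most extreme libraries of Ces1e it was 0.11, so that value likewise rests on those. Values with group means removed were not recomputed with libraries left out.

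**Figure D4:**
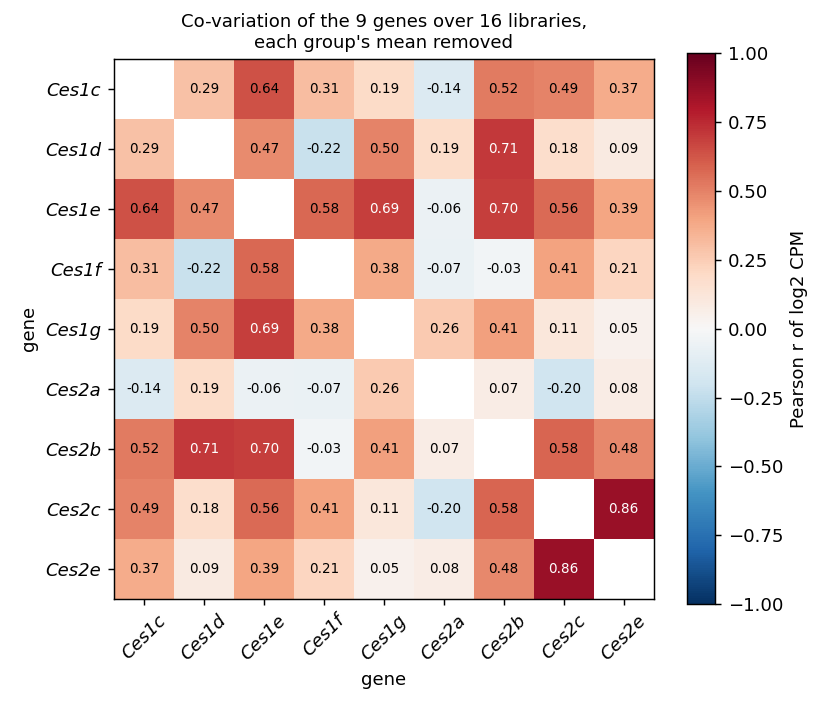
Pearson r of log2 CPM between each pair of the 9 genes over 16 libraries after removal of each group's mean (colour and number). Ces2c and Ces2e form the strongest pair at 0.86, and Ces2a lies between -0.20 (with Ces2c) and 0.26 (with Ces1g).

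The genes outside the family with the most similar pattern over the 16 libraries, of 14413 genes with a mean of at least 1 CPM, differed from member to member. As the best of so many, their r is high by selection. For Ces2b they were H2-DMb1 (r = 0.90), H2-DMa (0.90) and H2-Aa (0.88), all of MHC class II antigen presentation. With group means removed the values were 0.96, 0.93 and 0.94, and Spearman values were lower, at 0.79, 0.76 and 0.75. None of these was recomputed without male LKO replicate 3, the lowest library of Ces2b. Ces2a was most like 4931406C07Rik (0.86), Slc25a44 (0.84) and Cyp3a11 (0.81), the last a drug-oxidising cytochrome. Ces2c was most like Slc25a5 (0.91), the ADP/ATP carrier of mitochondria, and Glod5 (0.87) was also among its closest. Ces2e was most like Galm (0.90), which interconverts sugar anomers, Ppm1a (0.86) and Tmc4 (0.85). Ces1f was most like Entpd5 (0.90), a nucleoside diphosphatase, Tln2 (0.85) and Ascc1 (0.84), and Ces1e like Ntn4 (0.89), Qpct (0.88) and Scaper (0.88). Ces1d was most like Pfn2 (0.91), Phactr1 (0.91) and Retnla (0.91), Ces1c like Gypc (0.89), Tmed6 (0.88) and Gmpr (0.88), and Ces1g like Mettl7a1 (0.88), Slc16a9 (0.87) and the sulfotransferase Sult1a1 (0.84). For the members other than Ces2b, values with group means removed ran from 0.68 (Ces1c with Gypc) to 0.91 (Ces1d with Phactr1). Their Spearman values ran from 0.66 (Ces1g with Sult1a1) to 0.91 (Ces1g with Mettl7a1).

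Of the abundant Ces2 genes, Ces2e and Ces2c had the larger r with enterocyte markers. The summed marker level had r = 0.65 with Ces2e (Spearman 0.60, 0.58 within groups, 0.60 without the 2 farthest libraries) and 0.64 with Ces2c (Spearman 0.67, 0.42 within groups, 0.52 without the 2 farthest), over 16 libraries. For Ces2a it was 0.36 (Spearman 0.44, 0.056 within groups, 0.48 without the 2 farthest). Goblet cell markers (6 genes) had r = 0.71 with Ces2e (Spearman 0.65, 0.48 within groups, 0.55 without the 2 farthest), 0.59 with Ces2a (0.24 within groups) and 0.58 with Ces2c (0.28 within groups). The enterocyte sum had r = -0.57 with Ces1d (Spearman -0.65, -0.46 within groups, -0.53 without the 2 farthest). Ces1d had r = 0.72 with neuron and glia markers (Spearman 0.78, 0.54 within groups, 0.80 without the 2 farthest), 0.62 with smooth muscle markers (Spearman 0.67, 0.35 within groups, 0.70 without the 2 farthest) and 0.52 with the adipocyte sum (Spearman 0.63, 0.36 within groups, 0.63 without the 2 farthest). With fibroblast and endothelium markers its sign depended on the measure, at r = -0.21 (Spearman 0.23, -0.62 within groups, 0.60 without the 2 farthest). Smooth muscle markers also had r = 0.70 with Ces1c (Spearman 0.73, 0.58 within groups, 0.65 without the 2 farthest).

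Genes that work beside carboxylesterases were counted from lists written from general knowledge. Of 25 other ester and neutral lipid hydrolases 23 or 24 were tested per comparison, and only Abhd6, a monoacylglycerol lipase, was called, higher in LKO over both sexes by 0.35 ± 0.066 (edgeR adjusted p = 0.0310). Of 15 genes of triacylglycerol resynthesis and export, Agpat2, an acyltransferase of that pathway, was called over both sexes at 0.30 ± 0.062 (edgeR adjusted p = 0.0474). Of 22 xenobiotic enzymes and transporters, Ugt2b34, a glucuronosyltransferase, was called at -0.32 ± 0.060 (edgeR adjusted p = 0.0310). These 3 calls were fragile, since they held in 6, 2 and 8 of 16 fits that each left out 1 library. Of the 11 other alternatives they held in 9, 7 and 9. Their adjusted p ran from 0.000709 to 0.332, 0.00355 to 0.329 and 0.000545 to 0.114 over 27 alternatives. Of 13 transcription factors linked to these genes, among them Hnf4a at 319.5 ± 21.9 RPKM, Cdx2 at 114 ± 10.1 and the bile acid receptor Nr1h4 at 101 ± 10.2, none was called in any comparison. No gene of these 4 lists was called in the other comparisons. In females the 20 xenobiotic genes tested had a median log2 fold change of -0.19 and 15 of them were below 0, against a median of 0.0070 over all genes. In males 14 of 20 were below 0 (median -0.072, against -0.0020 over all genes). Over both sexes 17 of 21 were below 0 (median -0.10, against 0.00065).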

How the data were processed

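Per the labels and the study's methods, stranded poly(A) libraries were read as 100-base single ends, aligned to mm10 with STAR 2.5.2 (reads with a single position kept) and counted per gene with HOMER 4.10. The authors deposited unscaled counts, 1 whole number per gene and library. The strand setting of the counting is not given in the sources used here. Groups and replicate numbers came from the sample titles. All per-sample columns were used.

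Each comparison was fitted on all genes in R 4.3.3 with edgeR 4.0.16 (quasi-likelihood, robust, TMM, filterByExpr by group) and adjusted by Benjamini-Hochberg at 0.05. Comparisons of 2 groups used their 8 libraries, and the genotype effect over both sexes (sex as covariate) and the interaction used 16. DESeq2 1.42.0, other scalings, filters, a replicate block, an animal-number covariate, thinning and left-out libraries were alternatives. The fits were tested on simulated counts. All 24 replicate pairs differed by more than sampling noise (chi-square per degree of freedom 8.84 to 29.4). All 9 members were named in every comparison, beside genes of the pathway lists that were called or the highest by level (marker lists are given as counts and sums), and the 3 most similar genes per member, of which 1 is not reported here. The members and lists were chosen with earlier results of these data known. Titles number the animals separately, but nothing states litters or days. Correlations used log2 CPM with a prior count of 2.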

Additional observations from a re-analysis of the deposited data

Results flagged for a closer look

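In 36 sets of 4 libraries (9 genes in 4 groups), 4 had a library whose gap to the next, over the range of the set, was above Dixon's 95% critical value, where chance gives about 1 in 20. Ces1g was 10.5 CPM in male LKO replicate 2 against 1.29 to 1.93 in the other male LKO libraries, and 13.5 CPM in female WT replicate 1 against 3.91 to 4.22. Ces1f was 42.4 CPM in male LKO replicate 4 against 62.8 to 66.5. Ces2b was 2.45 CPM in male LKO replicate 3 against 5.14 to 5.60.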

How the results depend on the processing

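No member was called in the reported fits, and 5 of 109 alternative counts of called members were above 0. They were 1 with DESeq2 for the sexes in LKO (Ces2a), and in females 2 with DESeq2 and 1 with no filter. Leaving out 1 library gave 0 to 1 in females and 0 to 2 over both sexes, and 0 in the other comparisons. The cause was not tested. Over all genes DESeq2 called 1043, 63, 154, 224 and 0 for the sexes in LKO, LKO in males, in females, over both sexes and the interaction, where edgeR called 15, 8, 6, 42 and 0. Of 981 alternative values of the members' log2 fold changes, 943 kept the sign of the reported value. The replicate numbers did not pair the animals (r of same-numbered libraries -0.104 to 0.256). With the replicate number as a block 0 members were called in every comparison, and the sign turned for Ces1g between the sexes in LKO (-0.12), Ces1d in males (-0.018), and Ces1c (0.0063) and Ces2b (-0.00124) over both sexes. With the animal number as covariate Ces1f in males was 0.28. Every male LKO animal number was above every male WT number, so genotype and number order are confounded in that comparison. Without the 2 follicle-rich libraries, an alternative added after seeing the data, Ces2b in females was 0.058. Over both sexes Ces1c was 0.002339 with DESeq2, 0.0002763 with upper-quartile factors and 0.005394 with the deepest library thinned. Leaving out 1 library turned a sign within these ranges. Between the sexes in LKO they were -0.24 to 0.080 for Ces1e and -0.93 to 0.61 for Ces1g. In males they were -0.098 to 0.29 for Ces1d and -0.81 to 0.74 for Ces1g, and in females -0.21 to 0.019 for Ces2b and -0.084 to 0.032 for Ces2c. Over both sexes they were -0.097 to 0.082 for Ces1c, -0.9994 to 0.019 for Ces1g and -0.036 to 0.10 for Ces2b, for the interaction -0.32 to 0.067 for Ces1d and -0.16 to 0.24 for Ces2a, and for the WT description of Ces1f -0.27 to 0.085.

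Ces1c, Ces1e, Ces1g and Ces2b rest on 22 to 412 counts per library. Ces2a and Ces2c lose reads in shared windows.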
